A study of Mus musculus with 6 samples.

Results

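The baseline RNA profile of control olfactory epithelium was described from 3 of the 6 arrays of the series, chosen by their titles, which call the mice littermate controls with the genotype +/Y. They were 6-month-old males with the strain label B6CBACa, bought at 13 weeks of age and kept untreated, and the labels call the 3 arrays biological replicates. The other 3 arrays came from males with the Harlequin mutation (Hq/Y) and are not compared here. Total RNA of microdissected, unsorted tissue was hybridised to Affymetrix arrays of 45101 probe sets, each reporting a transcript as a linear signal. Where several probe sets named only the same gene, the brightest of them on average over the control arrays stood for it, which left 18193 genes. The median signal over non-control probe sets was 108 to 120 on the 3 arrays, and Pearson correlations across genes of log2(signal + 16) were 0.973 to 0.981, a description across genes. With 3 arrays the precision is limited, and no test was run, since there is 1 group.

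The olfactory epithelium lines part of the nasal cavity. Its mature sensory neurons detect odorants through receptors coupled to the G protein subunit Gnal, the adenylate cyclase Adcy3 and a cyclic nucleotide-gated channel. Sustentacular cells support the neurons and carry enzymes that metabolise inhaled compounds, horizontal and globose basal cells renew the epithelium, and Bowman glands beneath it secrete mucus and odorant-binding proteins. A dissected piece also brings lamina propria with glia, vessels, connective tissue and blood cells, and can bring turbinate bone and respiratory epithelium.

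The label was checked with 4 markers. Omp, the marker of mature olfactory sensory neurons, gave signals of 17348, 16922 and 16392 on control replicates 1, 2 and 3 (mean 16887 ± 479, SD, n = 3) and ranked 51 of 18193 genes. Cyp2g1, a P450 of the olfactory mucosa, gave 18072, 18067 and 16586 (17575 ± 857) and ranked 41. Obp1a, an odorant-binding lipocalin of nasal glands, gave 25309, 26509 and 25528 (25782 ± 639) and ranked 6. Krt5, the keratin of horizontal basal cells, gave 909, 1405 and 1133 (1149 ± 248), at the 77.0th percentile. All 4 markers lay above the median gene, whose mean signal was 323, on each array. The Y-linked Eif2s3y gave 1294, 1952 and 1141 and Xist, which is made from the inactive X chromosome of females, gave 67.4, 33.2 and 61.9, as the male label states. Each probe set has its own affinity, so ranks and percentiles order signals and not amounts of RNA. In whole tissue, fewer cells of a type and less RNA per cell cannot be told apart.

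Promoters are shown for bright neuronal and odorant-binding protein genes and for the uneven granulocyte genes described further on. Apart from Gm14743, each was picked among list members that hold the marked motif, so its match was given in advance. The sequences are the 250 bases before the annotated start, 5′ to 3′ on the gene's strand, from RefSeq on GRCm38.p6, in which 14452 of the 18193 measured genes have an entry. Capitals in Gng13 (chr17:25716922-25717171, plus strand) and Cnga2 (chrX:71991599-71991848, plus strand) mark CCCNNGGG, the core of the palindromic site of the O/E (Ebf) transcription factors of olfactory neurons. In Gng13 the capitals cover 2 overlapping matches.
Gng13: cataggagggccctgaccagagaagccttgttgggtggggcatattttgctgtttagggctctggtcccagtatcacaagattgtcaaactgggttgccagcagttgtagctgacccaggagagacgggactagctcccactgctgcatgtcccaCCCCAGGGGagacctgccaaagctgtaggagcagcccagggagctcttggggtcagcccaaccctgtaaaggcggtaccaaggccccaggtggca
Cnga2: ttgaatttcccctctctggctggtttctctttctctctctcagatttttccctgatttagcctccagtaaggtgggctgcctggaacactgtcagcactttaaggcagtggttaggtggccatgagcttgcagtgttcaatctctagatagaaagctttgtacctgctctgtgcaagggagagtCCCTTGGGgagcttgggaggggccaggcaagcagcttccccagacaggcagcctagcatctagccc
Of the 14 mature neuron genes with an entry, 7 held this core on either strand within the 300 bases from 250 before to 50 after the start, against 15.4% of all 27025 genes in the table and 19.7% of the measured genes. The core was also in 3 of 9 sustentacular and 3 of 13 gland promoters. The full site, which adds T before and A after the core, was in 0 of the 14 neuronal promoters and in 1.06% of all genes. Median GC content was 56.8% in the neuronal promoters, 58.7% over measured genes and 52.8% over all genes. A match is a stretch of letters and not evidence of binding.

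The neighbouring X-linked genes Obp1a (chrX:78091375-78091624, minus strand) and Gm14743 (chrX:78245922-78246171, minus strand), both among the 30 brightest, are shown with TATAAA, the TATA box, in capitals.
Obp1a: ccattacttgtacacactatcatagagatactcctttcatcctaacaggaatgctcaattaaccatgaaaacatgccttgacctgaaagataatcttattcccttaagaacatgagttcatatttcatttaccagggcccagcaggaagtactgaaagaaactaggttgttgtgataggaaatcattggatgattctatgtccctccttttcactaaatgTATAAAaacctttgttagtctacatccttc
Gm14743: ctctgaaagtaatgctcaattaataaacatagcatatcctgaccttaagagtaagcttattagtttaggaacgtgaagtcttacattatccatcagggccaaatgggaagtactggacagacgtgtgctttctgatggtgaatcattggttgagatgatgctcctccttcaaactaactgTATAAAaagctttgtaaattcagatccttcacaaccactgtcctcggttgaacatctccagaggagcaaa
TATAAA on either strand was in 4 of 8 promoters of the lipocalin and urinary protein list (Obp1a, Obp2a, Lcn3 and Lcn5), in 20 of 82 promoters of the 100 brightest genes and in 15.7% of all genes. Of measured genes 11.5% held it. It was in 0 of the 14 neuronal, 5 of 11 granulocyte, 4 of 9 sustentacular and 4 of 13 gland promoters.

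S100a8 (chr3:90668821-90669070), Mpo (chr11:87793534-87793783), Prtn3 (chr10:79879417-79879666) and Elane (chr10:79886062-79886311), all on the plus strand, encode granulocyte proteins and were uneven between the arrays. Capitals mark GAGGAAGT, a purine-rich ETS family motif, or its reverse complement.
S100a8: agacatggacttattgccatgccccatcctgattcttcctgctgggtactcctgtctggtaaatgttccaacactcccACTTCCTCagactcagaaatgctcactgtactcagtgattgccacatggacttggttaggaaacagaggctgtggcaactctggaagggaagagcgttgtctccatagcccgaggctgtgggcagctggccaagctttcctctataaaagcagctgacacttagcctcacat
Mpo: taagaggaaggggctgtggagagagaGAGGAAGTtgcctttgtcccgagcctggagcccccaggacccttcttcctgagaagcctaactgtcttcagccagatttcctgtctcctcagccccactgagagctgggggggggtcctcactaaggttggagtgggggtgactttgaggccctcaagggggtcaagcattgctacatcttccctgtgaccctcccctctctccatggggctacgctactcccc
Prtn3: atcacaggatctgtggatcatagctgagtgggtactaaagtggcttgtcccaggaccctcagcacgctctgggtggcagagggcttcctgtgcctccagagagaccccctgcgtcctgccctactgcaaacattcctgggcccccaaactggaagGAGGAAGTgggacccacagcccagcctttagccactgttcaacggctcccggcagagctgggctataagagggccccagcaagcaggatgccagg
Elane: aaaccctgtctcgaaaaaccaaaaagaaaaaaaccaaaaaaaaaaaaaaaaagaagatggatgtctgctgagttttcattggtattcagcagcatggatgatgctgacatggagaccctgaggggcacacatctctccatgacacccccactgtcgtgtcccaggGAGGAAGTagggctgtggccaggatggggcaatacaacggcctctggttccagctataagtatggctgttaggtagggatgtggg
This motif was in 5 of 11 granulocyte promoters, in 3.69% of all genes and in 3.47% of measured genes. TTGCNNAA, a C/EBP motif, was in 4 of 11 and in 12.2% of all genes. The other motifs searched were GGAAGTG, which overlaps GAGGAAGT and was in 4 of the 11 (12.5% of all genes), the homeodomain motif TAATTA, in 1 of the 14 neuronal promoters (6.12%), and the palindromic glucocorticoid element, in 0 of either list (0.537%).

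The ranking was led by secreted proteins. 5430402E10Rik, a gene of the odorant-binding protein family with the RefSeq synonym OBP2, gave 30140, 31786 and 29911 (mean 30613 ± 1023, SD, n = 3) and ranked 1. Bpifa1, a secreted BPI-fold protein of the upper airway also known as PLUNC, gave 28995, 29315 and 28789 (29033 ± 265) and ranked 2. After Obp1a followed the major urinary protein Mup5 (25364 ± 355, rank 8), the lipocalin Obp2a (24970 ± 1102, rank 9), the odorant-binding relative Gm14743 (23779 ± 652, rank 12) and the lipocalin Lcn11 (22962 ± 1451, rank 17). On the X chromosome 5430402E10Rik, Obp1a and Gm14743 were consecutive among the measured genes, and their probe sets may share signal where the transcripts are alike. Gpx6, an olfactory glutathione peroxidase, was less even, at 17110, 22618 and 20478, with control replicate 1 lowest.

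Next among the 30 brightest were enzymes of detoxification. Cbr2, a carbonyl reductase, gave 23976, 23465 and 23756 (23732 ± 256, rank 13). Sult1c1, a sulfotransferase, gave 23558 ± 693 (rank 14), the P450 Cyp2f2 gave 21889 ± 593 (rank 20) and the paraoxonase Pon1 gave 20841 ± 666 (rank 23). The aldehyde reductase Akr1a1 gave 27107 ± 230 and ranked 4. All 3 arrays agreed closely for these enzymes, within a coefficient of variation of 3.20%.

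Of sensory neuron genes, S100a5 and Stoml3 were among the 30 brightest. S100a5, a calcium-binding protein of these neurons, gave 25838, 28971 and 21655 (rank 7), with control replicate 3 lowest. Stoml3, a stomatin-like protein of the sensory cilia, gave 22291, 21525 and 21066 (rank 21). Also among the 30 were Sec14l3, a lipid-binding protein of the SEC14 family (mean 21232, rank 22), and Bpifb9b (rank 30). Genes with functions in every cell included the ribosomal genes Rps29, Rpl38, Rpl41, Rps14 and Rps3a1, the elongation factor Eef1a1, the actin-binding Tmsb4x, the tubulin Tuba1a, the ferritin subunit Fth1, the sodium pump subunit Atp1b1, the complex III subunit Uqcrb and the mitochondrially encoded complex I subunit ND5 (26275 ± 2106, rank 5).

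**Figure D1:**
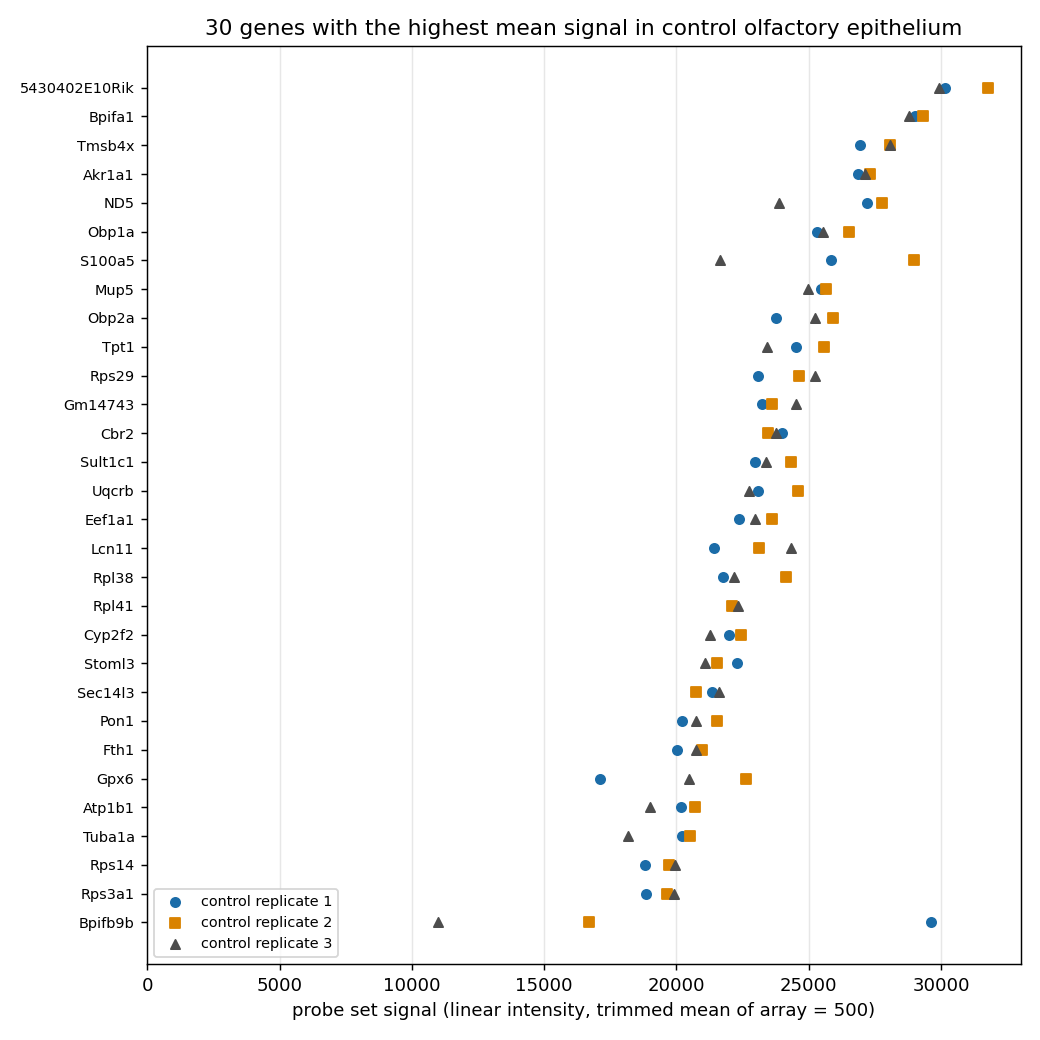
Linear probe set signal (x axis) of the 30 genes with the highest mean over the 3 control arrays, ordered by that mean, with 1 point per array. For most genes the 3 points lie close together; Bpifb9b, at 29626, 16689 and 10976, is the exception and ranges over more than 2-fold.

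Within these 30 genes the median coefficient of variation was 2.97%, and it ran from 0.576% for Rpl41 to its highest for Bpifb9b, a BPI-fold gene whose second probe set followed the same order, at 23007, 13510 and 9264. The 100 brightest genes had means of 13584 or more and held 9.68% of the summed signal of all genes, and the 1000 brightest held 42.5%. Among the 100 there were 25 cytosolic ribosomal proteins, 6 respiratory chain subunits, 6 genes of the gland list, 5 mature neuron genes, 5 antioxidant genes and 4 sustentacular genes, and 42 genes were in none of the lists used here. The 100 brightest of every single array had 80 genes in common. Of the 100 probe sets 7 end in _s_at and 19 in _x_at, suffixes of designs that can share signal between transcripts.

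Cell type lists were then placed in the ranking. A gene was called high when it lay in the top 10% by mean control signal, which held 1819 of 18193 genes (10%). A floor of 64.8, set at the 40th percentile of mean control signal over probe sets, was reached by the mean of 13257 genes (72.9%) and on all 3 arrays by 12527 genes (68.9%). As a reference for genes without a known role in this tissue, 43 measured markers of liver, pancreas, testis, retina, heart and kidney had a median signal of 25.6 and a median percentile of 15.1. Of these 43, 3 reached the floor on all arrays and 0 were high. The brightest was the kidney gene Nphs1, at 144.

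Mature olfactory sensory neuron genes were bright, with 14 of 19 measured genes high and a median percentile of 98.5, against 50 over all genes by construction. The transduction genes ranged widely in signal. Gng13, the G protein gamma subunit of these neurons, gave 17119 ± 549 (SD, n = 3), Gnal 14019 ± 1167, Adcy3 11274 ± 1142, the channel subunit Cnga2 12318 ± 603 and its modulatory partner Cnga4 9161 ± 1714. The exchange factor Ric8b, which acts on Gnal, gave 11844 ± 511. The phosphodiesterase Pde4a and the calcium exchanger Slc24a4 had means of 1407 and 849. Slc17a6, the vesicular glutamate transporter of these neurons, gave 4655 ± 577. The third channel subunit, Cngb1, gave only 108, 114 and 111 at its only probe set naming 1 gene, at the 34.1st percentile. The list leaves out Ano2, Rtp1, Rtp2 and Kirrel2, which had no probe set naming 1 gene. The median SD between arrays was 0.14 on the log2(signal + 16) scale, with 0 of 19 genes over 2-fold. In the brightest of 10 equal groups of genes by signal the median was 0.11, and 1.51% were over 2-fold apart.

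Odorant receptors, each expressed in a small share of neurons, were dimmer as single genes. Of 39 measured receptors 28 had a mean at or above the floor and 0 were high, with a median percentile of 36.7. The brightest were Olfr672, at 1648, 2628 and 2779, and Olfr690, at 1036, 2539 and 1385, both lowest in control replicate 1. Olfr73 gave 784, 1130 and 824. Receptors were also uneven between the mice. Their median SD was 0.39, and 8 of the 28 above the floor were over 2-fold apart, where 4.79% of all genes above the floor were. Unevenness goes with low signal, and among all genes 15.6% and 12% were over 2-fold apart in the dimmest and next dimmest of 10 equal groups by signal, with median SDs of 0.28 and 0.24. Olfr1509 gave 352, 50.3 and 63.0 and Olfr1264 345, 95.2 and 93.8, with control replicate 1 the highest for both.

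Vomeronasal receptors were mostly below the floor. Of 31 vomeronasal receptors 2 had a mean above the floor, with a median percentile of 7.71. Trpc2, the channel of vomeronasal neurons, gave a mean of 125. The G protein subunits Gnai2 and Gnao1, which vomeronasal neurons share with many other cells, had means of 2517 and 2439.

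Neuronal precursors had a graded position. Immature neuron genes had a median percentile of 82.3, with 8 of 19 high. The microtubule-destabilising stathmin Stmn1 gave 9190, 9161 and 7301 and the related Stmn2 gave 5337, 5327 and 4882. Of the 19 genes 13 were lowest in control replicate 3, against 33.8% of all genes above the floor. Globose basal and progenitor genes lay at a median percentile of 48.9, with 0 of 9 high. Hes6, a regulator of neuronal differentiation, was the brightest of them, with a mean of 1176. The neurogenic zinc finger gene Insm1 gave 911, 1395 and 772, and Neurod1, a differentiation factor, gave 471, 551 and 363. Of the 9 genes 2 were over 2-fold apart, Sox11 at 983, 1136 and 403 and Gadd45g, the other way, at 197, 206 and 423. Like the immature neuron genes, 7 of the 9 were lowest in control replicate 3. Synaptic vesicle genes, shared by all neurons, had a median percentile of 84.1, with Snap25, a membrane fusion protein, at 7815 ± 623.

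Horizontal basal cell genes lay in the middle, with a median percentile of 56.2 and 0 of 10 high. Itga6, the alpha6 integrin, gave 1232, 1277 and 1660, and Trp63, the factor that maintains these cells, gave 685, 961 and 1040. Krt14 gave 554, 680 and 580. Krt15 was unlike these, at 159, 1348 and 1258, with control replicate 1 far below the others. Control replicate 1 was lowest for 9 of the 10 genes, against 33.2% of all genes above the floor, and their median deviation there was -0.31 (log2), against 0.15 and 0.17 on control replicates 2 and 3.

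Sustentacular genes had a median percentile of 99.2, with 9 of 11 high and a median SD of 0.08. Besides those already described, the P450 Cyp1a2 gave 12034 ± 1078, the sulfotransferase Sult1d1 12535 ± 1312, and the epithelial keratins Krt18 and Krt8 gave 10201 ± 587 and 8600 ± 604 (SD, n = 3). The Notch effector Hes1, at 1039 ± 184, and Notch2, at 1762 ± 93.5, were lower in the ranking. Detoxification families as a whole were more mixed. Of 70 cytochrome P450 genes 6 (8.57%) were high, close to the 10% of all genes that were high by construction. A mean at or above the floor was reached by 31 of the 70, against 72.9% of all genes, and 39 were below it. Cyp2e1, which oxidises small solvents, gave 2284, 2238 and 5490, and Cyp4b1 gave 2921, 3071 and 5948, both highest in control replicate 3. Of 22 glutathione S-transferases 10 were high, led by Mgst1 (17547 ± 900) and Gstm5 (17032 ± 1941). Aldh2, the mitochondrial aldehyde dehydrogenase, gave 13020 ± 1230 and the carboxylesterase Ces1d 10719 ± 1247. Of 23 antioxidant genes 14 were high, among them the peroxidase Gpx4 (16346 ± 690) and the metallothionein Mt1 (13022, 16105 and 17330).

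Gland genes had a median percentile of 98.3, with 14 of 17 high. Bpifb3, a BPI-fold protein, gave 18031 ± 1060, the iron-binding defence protein lactoferrin (Ltf) 7159 ± 1255, the mucin Muc5b 3747, 6650 and 6206, and Pigr, the receptor that carries IgA into secretions, 3047 ± 285. The transcription factor Sox9 had a mean of 327. The median SD of the list was 0.15, and 4 of its 17 genes were over 2-fold apart. This held for 4.79% of all genes above the floor and 1.51% of the brightest of 10 equal groups by signal. Lcn3 and Lcn4, the lipocalins first described as vomeronasal secretory proteins, gave 7790, 9743 and 18820, and 5189, 5346 and 14716. Dmbt1, a mucosal scavenger receptor protein, gave 2236, 3357 and 9645. Each of these 3 genes was highest in control replicate 3. Odam went the other way, at 2241, 306 and 152, and is taken up with the uneven genes.

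Microvillar and chemosensory cell genes were mostly low, with a median percentile of 37.6 and 0 of 12 high. Ascl3, a factor of a duct and microvillar cell lineage, was the brightest at 2117, 2072 and 2766. The ionocyte factor Foxi1 gave 526 ± 30.2 and the chloride channel Cftr 470 ± 10.8. Trpm5, the channel of chemosensory cells, gave 186, 127 and 143.

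**Figure D2:**
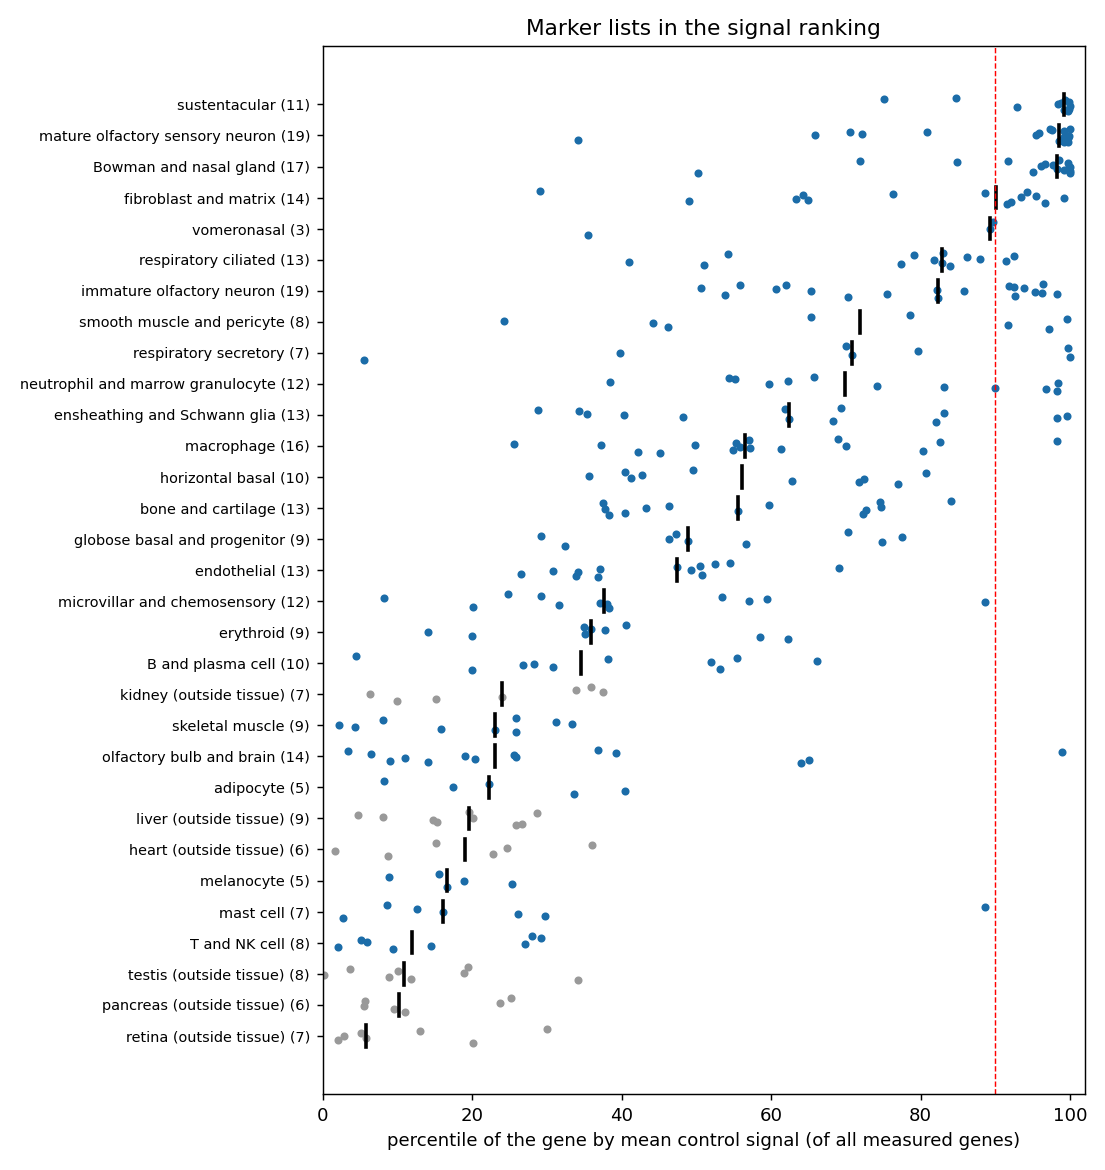
Percentile of each measured gene by mean control signal (x axis) for 25 cell type lists (blue) and 6 lists of tissues outside the nose (grey), with 1 point per gene, black bars at list medians and the number of measured genes in parentheses. The dashed line is the 90th percentile; sustentacular, mature neuron, gland and fibroblast lists have medians above it, and the outside tissue lists lie at 24.0 or below.

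Markers of adjoining tissues were placed in the same way. Respiratory ciliated cell genes had a median percentile of 82.9, with 2 of 13 high. Foxj1, the regulator of motile cilia, gave 1476, 1838 and 1759, and Rsph1, a radial spoke protein, gave 2952, 2581 and 3351. Respiratory secretory genes had a median percentile of 70.9, with 2 of 7 high. These were Bpifa1 and Reg3g, an antibacterial lectin (16162 ± 1726), and Bpifb1, Scgb3a1 and the trefoil factor Tff2 had means of 1313, 859 and 832. Scgb1a1, the secretoglobin of club cells, was at 4.80, 18.8 and 4.40, and Muc5ac, a goblet cell mucin, at 168 ± 52.7. Fibroblast and matrix genes had a median percentile of 90.1, with 7 of 14 high. The proteoglycan Dcn gave 12104 ± 1367. The fibrillar collagens Col1a1 and Col1a2 were less even than Dcn. Col1a1 gave 4593, 3101 and 1306 and Col1a2 7676, 5798 and 3378, both lowest in control replicate 3. Col6a1, of a microfibrillar collagen, gave 617, 718 and 663. Of the 14 fibroblast and matrix genes 8 were lowest and 3 highest in control replicate 3. Over all genes above the floor these shares were 33.8% and 38.1%. Mgp, at 3216, 2975 and 5648, was among the 3. Bone and cartilage genes lay at a median percentile of 55.6. The bone resorption protease Ctsk gave 2360, 1360 and 1355 and the osteocyte protein Dmp1 1370, 675 and 745. Control replicate 1 was the highest for both, but Chad, of the same list, went the other way, at 365, 405 and 824. Of the 13 bone and cartilage genes 6 were highest and 5 lowest in control replicate 1. Over all genes above the floor these shares were 31.5% and 33.2%. Of the 13 genes 5 were over 2-fold apart, against 4.79% of all genes above the floor.

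Glia of the olfactory nerve bundles had a median percentile of 62.5. Apod, a lipocalin of glia and fibroblasts, gave 12100, 15176 and 15675, and Fabp7, the fatty acid-binding protein of ensheathing glia, gave 7428, 9422 and 8268. S100b gave 1500 ± 140 and Sox10, the glial lineage factor, 595 ± 147. Control replicate 1 was lowest for 9 of the 13 genes, against 33.2% of all genes above the floor. Endothelial genes had a median percentile of 47.4 and 0 of 13 were high, with the junction protein Cldn5 brightest at 794 ± 151. Smooth muscle and pericyte genes had a median percentile of 71.9, with 3 of 8 high. Rgs5, a pericyte regulator of G protein signalling, gave 15285 ± 2577 and the actin Acta2 6357 ± 1120, while Myh11 and Cnn1, of the contractile apparatus, had means of 257 and 227 and the intermediate filament gene Des, at 51.8, was below the floor.

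Of 14 olfactory bulb and brain genes 9 had a mean below the floor. Tbr1 gave 36.8, 19.9 and 13.8, Gad1 2.30, 25.8 and 25.1, and the vesicular transporter Slc17a7 19.8, 65.0 and 20.4. The brightest were Eomes (640 ± 103), Reln (668 ± 103) and Aqp4 (10589 ± 1641), a water channel that is also known from gland and airway epithelium. Skeletal muscle genes (median percentile 23.1), adipocyte genes (22.3), melanocyte genes (16.6), mast cell genes (16.1) and T and NK cell genes (11.9) were also low. Macrophage genes lay at a median of 56.5, with Lyz2, the lysozyme of macrophages and of glands, at 8357 ± 1175 and Csf1r, the macrophage growth factor receptor, at 1362 ± 31.3.

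Spread between the 3 control arrays was measured as the SD of log2(signal + 16), over the 13257 genes with a mean at or above the floor. The constant understates differences of dim genes. The median SD was 0.16 and the 90th percentile 0.40. It depended on signal, with a median of 0.28 in the dimmest of 10 equal groups (signals 64.9 to 113) and 0.11 in the brightest (3333 to 30613). Between the highest and lowest array 635 genes (4.79%) were over 2-fold apart, 15.6% of the dimmest group and 1.51% of the brightest. Without control replicate 1 this count was 331, without 2 it was 386 and without 3 it was 197, each over the remaining 2 arrays. Among the evenest of the 1000 brightest genes were Capza2, an actin-capping protein, at 5798, 5825 and 5834, and the proteasome subunit Psmb5, at 4836, 4817 and 4860.

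Control replicate 3 stood apart most often. In 223 of the 635 genes (35.1%) it was the highest array and at least as far, in log2, from the middle array as the lowest was, against 20.6% of all genes above the floor. Control replicate 1 stood apart as low in 142 genes (22.4%, against 16.2%). Of the 635 genes 150 had a second probe set with a mean above the floor, and 62 of these second probe sets (41.3%) were over 2-fold apart as well, against 4.93% over all 6121 genes with such a probe set. In 83 of the 150 (55.3%) both probe sets put the 3 arrays in the same order, against 28.2% over all.

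**Figure D3:**
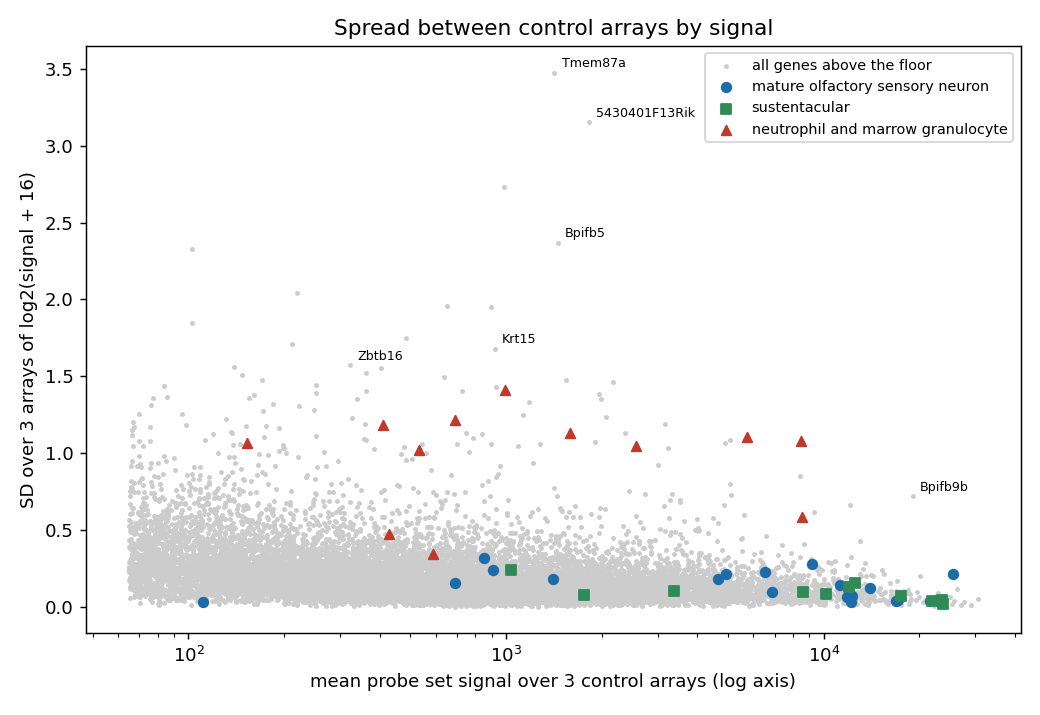
SD over the 3 control arrays of log2(signal + 16) (y axis) against the mean signal (x axis, log scale) for all genes above the floor (grey), with 3 marker lists in colour. None of the mature neuron and sustentacular genes is over 2-fold apart, while 10 of 12 granulocyte genes have an SD above 0.5. Of all genes above the floor 4.79% are over 2-fold apart, and of the brightest of 10 equal groups 1.51%.

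Neutrophil and marrow granulocyte genes were the least even of the lists. Of 12 measured genes 10 were over 2-fold apart (4.79% of all genes above the floor), and the median SD was 1.07. S100a8 and S100a9, the calcium-binding proteins of neutrophil cytoplasm, gave 8507, 3167 and 13810, and 5431, 2105 and 9675. Mpo, myeloperoxidase, gave 698, 272 and 2007, Prtn3, proteinase 3, gave 531, 229 and 1304, and Elane, neutrophil elastase, gave 480, 207 and 903. The secondary granule genes Ngp and Camp gave 2993, 961 and 3765, and 1991, 531 and 2234. Control replicate 3 was highest for 11 of the 12 genes (38.1% of all genes above the floor, against 31.5% for control replicate 1 and 30.3% for control replicate 2) and control replicate 2 lowest for 10 (33%). Chil3, which alveolar macrophages also make, had another order, at 294, 582 and 405, and Lcn2, which epithelia also secrete, gave 5302, 8456 and 11936.

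Erythroid genes lay in the same order. Of the 7 erythroid genes above the floor all 7 were highest in control replicate 3 and 6 lowest in control replicate 2. Over all genes above the floor these shares were 38.1% and 33%. Alas2, which starts haem synthesis in red cell precursors, gave 601, 359 and 813, the anion exchanger Slc4a1 gave 341, 246 and 926, and the carbonic anhydrase Car1 gave 118, 32.2 and 207. The median deviation was -0.52 on control replicate 2 and 0.52 on control replicate 3, and for granulocyte genes it was -1.18 and 0.96. The summed signal of the 9 measured erythroid genes was 1649, 1141 and 2748, with Epb42 and Hba-a1 below the floor on all arrays. That of the 12 granulocyte genes was 27322, 17134 and 47776. Haemoglobin probe sets naming several genes are outside the erythroid list, and the brighter of these were highest in control replicate 1 or 2. Cell cycle genes moved less, with 14 of 18 highest in control replicate 3 (38.1% of all genes) and a median deviation of 0.22 there. Of 15 macrophage genes 10 were highest in control replicate 3 (median deviation 0.19), against the same 38.1%. B and plasma cell genes had another order, with 6 of 7 highest in control replicate 1 and 5 lowest in control replicate 3. Over all genes above the floor these shares were 31.5% and 33.8%. The median deviations of the B and plasma cell genes were 0.27, -0.11 and -0.14. Ighm, the heavy chain of IgM, gave 741, 191 and 148, and Igha, that of IgA, gave 697, 595 and 807. The part of blood or marrow cells in the spread of other genes was not tested.

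**Figure D4:**
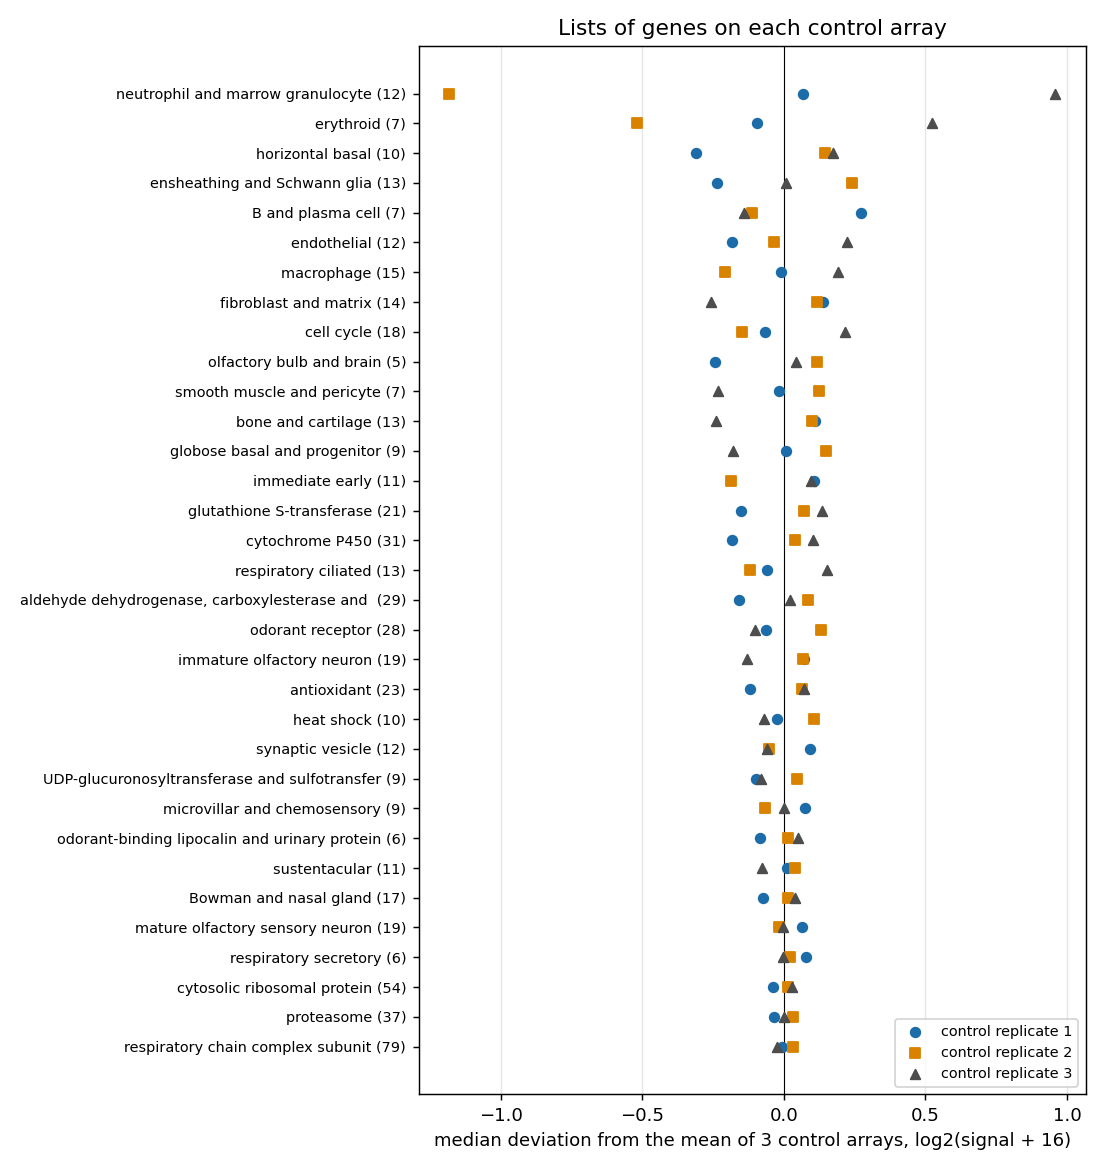
Median deviation of each list's genes above the floor from their mean over the 3 control arrays, in log2(signal + 16) (x axis), with 1 point per array and the number of genes in parentheses. Granulocyte genes run from -1.18 on control replicate 2 to 0.96 on control replicate 3, while mature neuron, sustentacular and respiratory chain lists lie within 0.08 of 0.

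Several genes, some of them encoding secreted proteins, were high in control replicate 1 alone. The gene 5430401F13Rik gave 5076, 50.6 and 348, the BPI-fold gene Bpifb5 3924, 259 and 181, and Odam, an odontogenic protein known from nasal glands, 2241, 306 and 152. Cabs1 gave 577, 54.8 and 24.7, and the enamel protein gene Ambn gave 276, 20.7 and 12.2. With Bpifb9b these were highest in control replicate 1 and, 5430401F13Rik apart, lowest in control replicate 3. Bpifa2, another BPI-fold gene, was lowest in control replicate 1, at 81.7, 823 and 307.

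Further uneven genes had other orders. Tmem87a, a membrane protein of the Golgi, had the largest SD, 3.48, at 16.4, 2845 and 1397. Rpgrip1, a ciliary protein, gave 39.1, 1980 and 928 at its brightest probe set, while its other 3 probe sets were below the floor on all arrays. Cap1, an actin regulator, gave 3693, 2290 and 513, and its second probe set gave 3102, 1848 and 415. Scgb1b27, a secretoglobin, gave 507, 670 and 3440, and Sult1a1, a phenol sulfotransferase, gave 199, 267 and 1443, both highest in control replicate 3. The neutrophil-associated Ifitm6 (240, 100.8 and 1621), Ctsg (233, 88.5 and 1127), Stfa3 (3.10, 3.60 and 301) and Stfa2l1 (63.3, 46.6 and 527) shared that array as their highest.

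Uneven genes often neighboured each other. Of 634 genes over 2-fold apart that could be placed on a chromosome 125 (19.7%) had a neighbour, among genes above the floor, that was also over 2-fold apart, against 9.26% of all 13237 genes placed. Runs of at least 3 such neighbours included Cdk5rap1, Bpifb5 and Bpifb9b on chromosome 2, Odam, Csn3 and Cabs1 on chromosome 5, and Plppr3, Prtn3 and Elane on chromosome 10. Neighbours did not always share an order, and Csn3, at 438, 221 and 592, was highest in control replicate 3 between Odam and Cabs1.

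**Figure D5:**
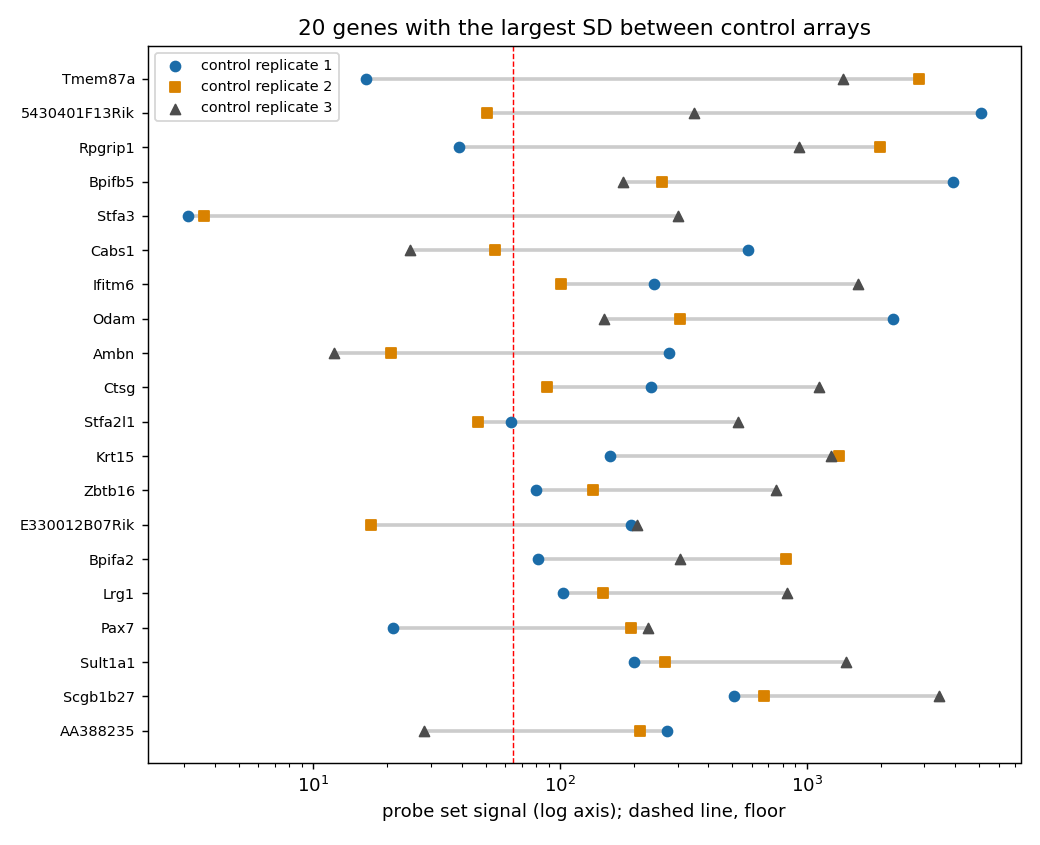
Linear signal on a log axis of the 20 genes above the floor with the largest SD between the control arrays, 1 point per array, with the floor of 64.8 dashed. Genes such as Bpifb5, Cabs1, Odam and Ambn have control replicate 1 at the right, and Ifitm6, Ctsg, Stfa2l1 and Zbtb16 have control replicate 3 there.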

How the data were processed

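Each deposited value is an intensity per probe set on a linear scale. The mean without the lowest and highest 2% was 500 on every array, so the authors' values were scaled before deposit. Per the labels' protocols, 3 µg of RNA was labelled per array. The condensing software is not given in the sources used here. Of 45101 probe sets 64 controls were left out. Of the rest 34945 name 1 gene in the platform annotation, 932 several and 9160 none. Names were checked through gene identifiers against RefSeq (18032 of 18194 found, 0 symbols changed). A gene is read from its brightest probe set by mean control signal. Spread was computed on log2(signal + 16), over genes with a mean at or above 64.8. Lists count measured members. Named genes were the 30 brightest, the 2 first and 4 brightest of each list, 4 markers, the sex check genes, and the evenest and least even genes. Members and lists were chosen with earlier results of these data known. Further list members (such as Cngb1, Lcn3, Lcn4, Mpo, Olfr1509 and Olfr1264), Cap1, Cdk5rap1, Csn3, Plppr3 and the genes under other observations were named after their values were seen, and the promoter motifs were chosen after the lists were seen. Alternatives were other scalings, pseudocounts, floors and probe set choices, and each array left out. Python 3.11.15, pandas 2.3.3 and matplotlib 3.10.9 were used, and the spread calculation was tested on simulated data.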

Additional observations from a re-analysis of the deposited data

How the results depend on the processing

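The number of genes reaching the floor on all arrays stayed between 9773 and 14619 over all alternatives. Of the 100 brightest genes, 66 remained when probe sets of a gene were averaged, and 78 to 99 under the others. The count of genes over 2-fold apart was 304 with a pseudocount of 64, 248 with the floor at the 60th percentile, 2145 without a filter, and 197 to 386 with 1 array left out. The median SD between arrays (0.16) was 0.18 with median scaling, 0.15 with averaged probe sets or a pseudocount of 64, 0.14 with the higher floor, 0.20 without a filter, and 0.12 to 0.14 with 1 array left out. No list deviation of at least 0.5 changed sign. The median percentile of the granulocyte list was 59.0 without control replicate 3, that of the smooth muscle list 57.1 without _s_at and _x_at probe sets, and scaling moved no list by more than 0.366 percentile points. No paired analysis was possible because the report makes no comparison between groups. Saturation of the brightest signals and the affinity of single probe sets could not be read from these values.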

Other observations

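Probe sets that name several genes fall outside the ranking, and some are among the brightest of the arrays. The probe set shared by Cyp2a5 and Cyp2a4, P450 enzymes of olfactory supporting cells, gave 27694, 28869 and 25696 on control replicates 1, 2 and 3, a mean above that of all but 3 ranked genes. Haemoglobin was bright as well. A probe set shared by Hba-a1 and Hba-a2 gave 22444, 22967 and 21166, and one shared by 4 beta-globin genes gave 19104, 17988 and 18533, while the probe set naming Hba-a1 alone gave 49.7, 60 and 3.60. Another probe set shared by Hba-a1 and Hba-a2 gave 20073, 18864 and 19934. The bright shared haemoglobin probe sets were highest in control replicate 1 or 2. A dimmer probe set shared by Hba-a1 and Hba-a2 gave 3191, 2849 and 3568, highest in control replicate 3 and lowest in control replicate 2. Ugt2a1 and Ugt2a2, glucuronosyltransferases of the olfactory mucosa, shared a probe set at 17736 ± 459 (SD, n = 3). Of 932 probe sets naming several genes 74 were at or above the signal of the 100th ranked gene, as were 23 of 9160 unnamed probe sets, the brightest of them at 23724.

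A set of genes known to respond to glucocorticoids was chosen after Zbtb16 and Klf9 were seen among the least even genes. It was highest in control replicate 3 for 11 of 12 members, against 38.1% of all genes above the floor, with Cdkn1a the exception. Its selection gives it no weight as evidence of a direction. Cdkn1a gave 1972, 2017 and 1609 at its brightest probe set, but 197, 267 and 323 at its second. Zbtb16, a zinc finger factor, gave 80.3, 136 and 751, and Klf9 gave 1581, 541 and 3777. Fkbp5, a chaperone of the glucocorticoid receptor, gave 306, 602 and 1454, and its second probe set gave 121, 194 and 685. Tsc22d3, also called GILZ, gave 1007, 1490 and 4613, with 803, 1052 and 2852 at its second probe set. The metabolic kinase Pdk4 gave 162, 175 and 401 and the clock gene Per1 323, 313 and 679, whereas Per2 gave 860, 911 and 938 and Dbp 3286, 2753 and 2424.

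Of the major histocompatibility genes H2-D1 and H2-K1, H2-D1 had probe sets that disagreed. At its brightest probe set H2-D1 gave 1622, 1598 and 311, with control replicate 3 lowest, and at another 515, 534 and 1710, with control replicate 3 highest. H2-K1 gave 2822, 2733 and 618 at its brightest probe set and 777, 805 and 71.2 at another, both lowest in control replicate 3. Probe sets of these genes can share signal with their relatives. Among genes with a second probe set above the floor the brightest probe set was a median of 1.91 times the second, and over 4 times the second for 21.4% of 6121 genes.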
